A study of Mus musculus with 34 samples.

Results

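Cdx2, Hnf4a, Klf4, Klf5, Gata6, Sox9 and Sox17 encode transcription factors that set or hold the identity of the gut epithelium. They were chosen by name, by matching each Ensembl identifier of the count table to its mouse symbol, and all 7 were among its 14107 genes. Expression was read in 34 RNA sequencing libraries of 3 mouse colorectal cancer lines, called NaJa-D, NaJa-F and, for the third, NaJa-G. Each line was treated with 0.5 µM encorafenib, which blocks the mutant BRAF kinase, or with DMSO, and sampled at day 1 or day 5.

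The 12 groups of line, treatment and day held 3 libraries each, except for 2 libraries in NaJa-F with encorafenib at day 5 and 2 in NaJa-G with DMSO at day 5. All cells were of the C57BL/6N strain and of the genotype VillinCreERT2::BrafV600E/+::Trp53R172H::APCdel, DMSO controls included. In this genotype an inducible Cre expressed from the Villin promoter of gut epithelium had recombined the Braf, Trp53 and Apc alleles in colon organoids, so no group without the 3 alleles was compared. Each line came from the peritoneal lavage of 1 recipient of such organoids, and 3 lines are therefore 3 recipients, not repeats of a condition. Cells were plated together for both days, and drug or DMSO was renewed with fresh medium on days 2 and 4 for the day 5 samples. The labels did not say whether the libraries of a group came from separate cultures, so p-values measure the spread between these libraries, which may be technical.

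CDX2 is a homeobox factor that keeps the intestinal programme on along the adult gut and holds back the programme of the stomach. HNF4A is a nuclear receptor that acts with CDX2 at enhancers of absorptive cell genes, including genes of the brush border. GATA6 is a zinc finger factor of endoderm and gut epithelium, KLF4 is tied to cells that leave the cell cycle and to goblet cells, and KLF5 to dividing cells of the crypt. SOX9 is a target of WNT signalling at the crypt base, and SOX17 is a factor of early endoderm that is little expressed in adult colon epithelium. Apc loss raises WNT signalling, and BRAF acts upstream of MEK and ERK.

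The promoters of Cdx2 and Hnf4a, the pair of genes whose RNA fell most under encorafenib, are shown as the 250 bases before the start annotated by RefSeq on GRCm38.p6. Hnf4a is transcribed from 2 promoters that lie far apart, and gene counts do not separate their transcripts. Capitals mark the motif GATAA of GATA factors, the motif TTTAT of CDX factors and the motif CACCC of KLF factors on either strand, where the reverse complement of the KLF motif reads GGGTG. No motifs of different kinds overlapped in these windows.
Cdx2, chr5:147307250-147307499, minus strand: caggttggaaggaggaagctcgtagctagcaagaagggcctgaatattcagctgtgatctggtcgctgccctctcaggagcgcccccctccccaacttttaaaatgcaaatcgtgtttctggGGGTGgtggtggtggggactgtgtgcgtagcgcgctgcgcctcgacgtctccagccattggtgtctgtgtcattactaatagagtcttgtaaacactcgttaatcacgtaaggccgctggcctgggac
Hnf4a, distal start, chr2:163506607-163506856, plus strand: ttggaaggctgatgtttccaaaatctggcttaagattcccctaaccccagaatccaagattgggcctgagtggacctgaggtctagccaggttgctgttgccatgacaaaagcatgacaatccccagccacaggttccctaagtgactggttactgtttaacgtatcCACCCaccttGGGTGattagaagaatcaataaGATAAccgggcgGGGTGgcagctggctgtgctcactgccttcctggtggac
Hnf4a, proximal start, chr2:163546905-163547154, plus strand: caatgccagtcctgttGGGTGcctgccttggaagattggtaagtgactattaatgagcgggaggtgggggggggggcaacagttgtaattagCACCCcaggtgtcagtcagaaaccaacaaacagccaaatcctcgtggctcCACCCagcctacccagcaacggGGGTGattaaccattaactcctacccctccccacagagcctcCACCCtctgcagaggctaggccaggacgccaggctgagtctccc
The Cdx2 window held 1 CACCC motif and none of the other 2 motifs. The distal Hnf4a window held 3 CACCC motifs and 1 GATAA motif, and the proximal window held 5 CACCC motifs. Of the 32851 promoter windows of the same length in the RefSeq table, 52.0% held CACCC, 22.6% held GATAA and 37.3% held TTTAT. The Klf4 window held TTTAT 1 time and CACCC 0 times. A motif match describes letters and is no measure of binding.

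Libraries held between 46007050 and 80121299 counts in all. The library NaJa-D DMSO day 1 replicate 3 carried NaJa-G in its cell line field, while its title gave NaJa-D, and its log2 CPM (counts scaled to a common library total with TMM factors) correlated at 0.995 with its own group and at no more than 0.92 with NaJa-G. It was kept under its title. All 7 colorectal epithelial markers of a list (Epcam, Cdh1, Krt8, Krt18, Krt19, Vil1 and Cdh17) were in the table, with summed CPM of 5136 to 9068 (NaJa-D), 4431 to 7359 (NaJa-F) and 2598 to 5216 (NaJa-G). Stromal markers (4 of 6 in the table) summed to 1.24 to 7.54 CPM (NaJa-D), 1.90 to 5.22 (NaJa-F) and 13.9 to 119.5 (NaJa-G). Among them Col1a1 averaged 2.44 log2 CPM over all groups, against -0.21 for Col1a2, -0.78 for Dcn and -1.96 for Pdgfrb. The paper names decorin, the product of Dcn, among the proapoptotic effectors whose transcripts rose with encorafenib in all NaJa lines. Leukocyte markers (2 of 5) summed to 3.64 to 10.2 CPM and the single endothelial marker in the table to at most 1.36 CPM, and Ptprc, Pecam1 and Cdh5 were not among the genes analysed. Mesothelial markers (3 of 4) summed to 497 to 3520 CPM. Most of this sum was Msln, with a mean of 10.2 log2 CPM, against -0.37 for Upk3b and 0.53 for Lrrn4. With encorafenib 14 of the 18 mesothelial tests were higher and 0 lower. For the stromal markers these counts were 15 of 24 and 0, and for the leukocyte markers 7 of 12 and 0. Of the 42 epithelial tests 16 were higher and 10 lower, and of the 6 endothelial tests 0 were higher and 1 lower. Of the tests of all genes, 40.5% were called in either direction in the same comparisons. ERK readouts served as a check of the drug, and 22 of 24 tests of Fosl1, Spry4, Etv4 and Dusp6 were lower with encorafenib (limma, adjusted p below 0.01). Fewer cells of a kind and less RNA per cell cannot be told apart in bulk samples. The paper reports, from loss of the wild-type Apc band in PCR, that host cells disappeared during passaging. It adds, as further evidence of their absence, loss of the wild-type Trp53 band and a raised Trp53R172H allele frequency in exome sequencing. It describes NaJa-G as mesenchymal-like. Host cell content of these libraries was not tested.

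**Figure D1:**
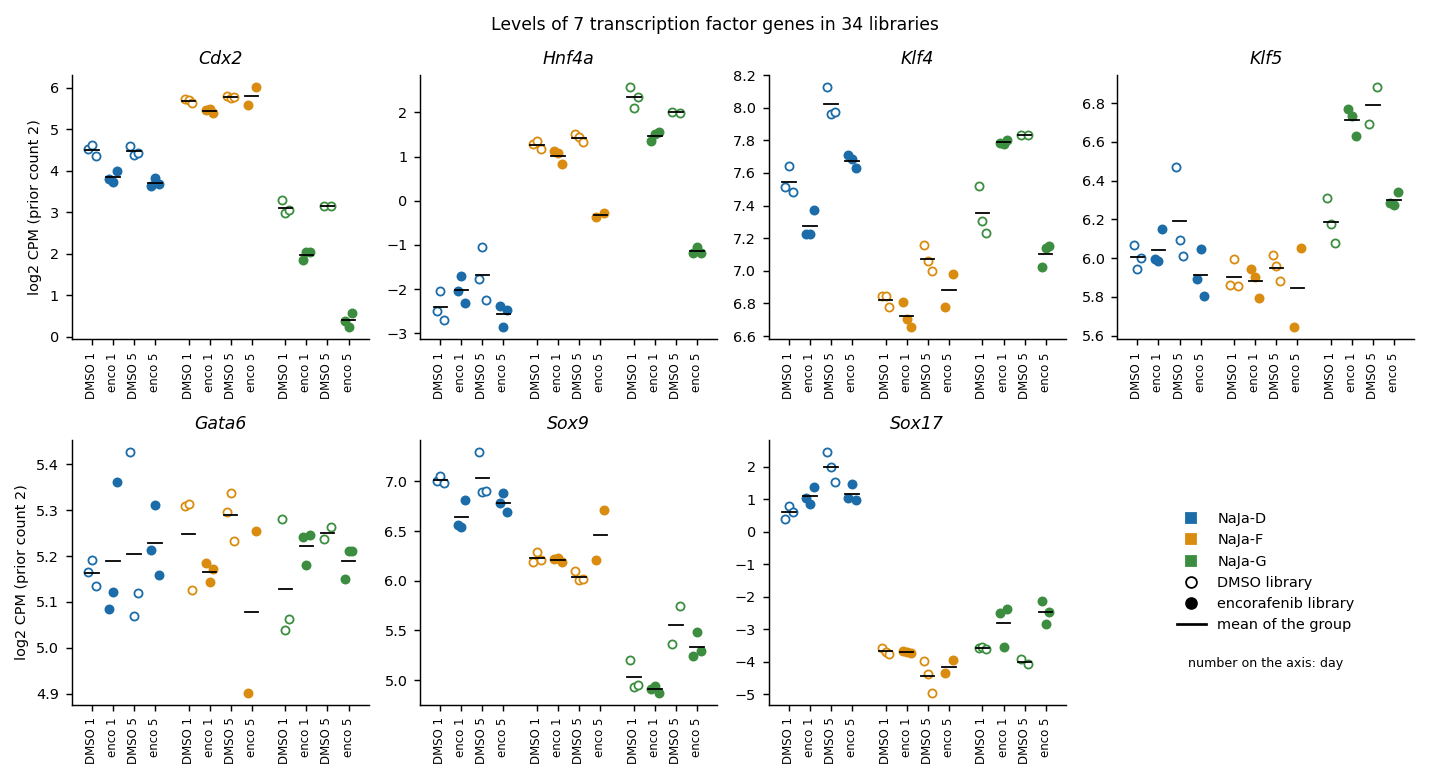
Levels of the 7 genes in each of the 34 libraries as log2 CPM with a prior count of 2, by line (colour), treatment (open, DMSO; filled, encorafenib) and day, with the group mean as a bar. Each panel has its own axis. Cdx2 in NaJa-G with encorafenib at day 5 lay below every other group, Sox17 was above 1 CPM in NaJa-D only, and the Gata6 group means spanned 0.21 on the log2 scale.

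The 7 genes spanned a wide range of levels. Per kilobase of exon in DMSO at day 1, Klf4 was highest, at 61.3 ± 3.62 (NaJa-D), 37.1 ± 1.06 (NaJa-F) and 53.8 ± 5.69 (NaJa-G) CPM per kb (SD, n = 3 each). Sox9 had 31.2 ± 0.802, 18.1 ± 0.645 and 7.91 ± 0.842 CPM per kb in the same order of lines, and Cdx2 had 10.0 ± 0.909, 22.9 ± 0.757 and 3.84 ± 0.469. Klf5 (11.5 to 14.0 CPM per kb) and Gata6 (5.38 to 5.85) differed little between the lines. Hnf4a (0.0331, 0.493 and 1.05 CPM per kb) and Sox17 (0.314, 0.00964 and 0.0109) were the lowest of the 7 in each line. In NaJa-F the level of Cdx2 was thus above that of Sox9 per kilobase, and in NaJa-D and NaJa-G it was below it.

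Encorafenib was compared with DMSO in each line at each day, with limma-voom on all 14107 genes and TMM scaling. A gene was called where its p, adjusted by Benjamini-Hochberg across the table, was below 0.01. Members were called in 15 of 42 tests, 2 higher and 13 lower. This was 35.7% of the member tests, and 40.5% of the tests of all genes were called in the same 6 comparisons. The median absolute log2 fold change was 0.31 for the members and 0.27 for all genes.

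In NaJa-D, 3 of 7 members were called at day 1 (44.9% of all genes) and 3 of 7 at day 5 (33.0%), each of them lower. None of the 7 was called by limma in NaJa-F at day 1 (29.5%), where 1 had an unadjusted p under 0.05 and edgeR, DESeq2 and limma-trend called 0. Hnf4a was called there at day 5 (18.2%). NaJa-G had 2 members higher and 2 lower at day 1 (64.0%) and 4 lower at day 5 (53.2%). At day 1 the median log2 fold change of the members was 0.02 for NaJa-D, -0.08 for NaJa-F and 0.09 for NaJa-G. The medians at day 5 were -0.35, -0.10 and -0.49. The medians of all genes lay between -0.02 and 0.04.

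**Figure D2:**
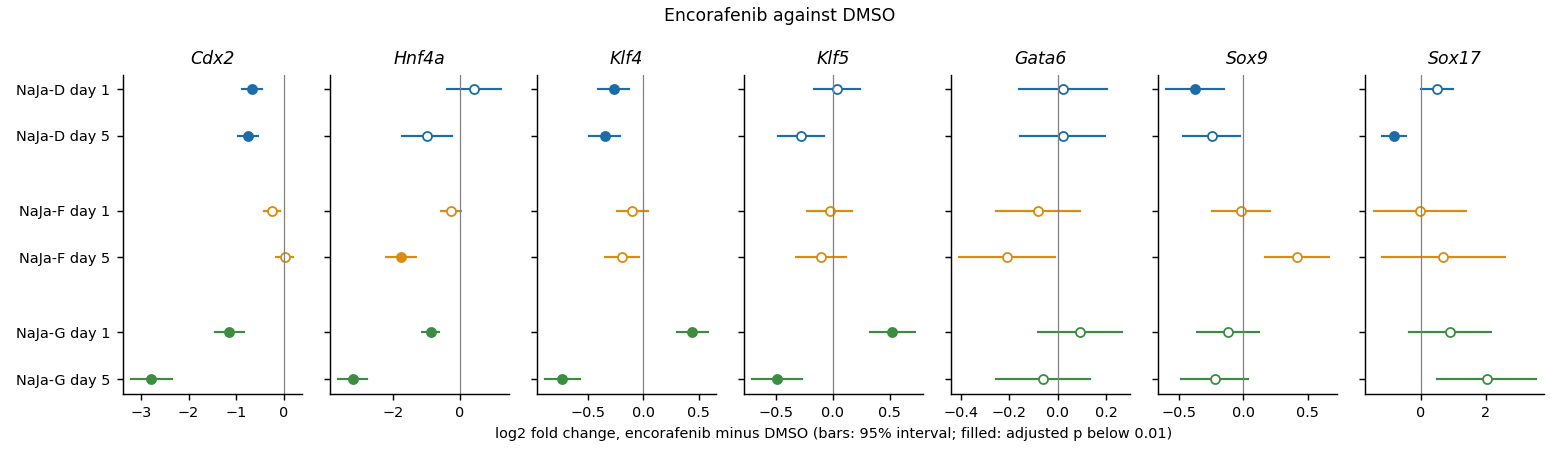
Log2 fold change of each gene with encorafenib against DMSO, by line and day, with its 95% interval from the limma fit. Filled points passed an adjusted p below 0.01. The scales differ between panels, and Cdx2 and Hnf4a in NaJa-G at day 5 reached -2.78 and -3.22.

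Cdx2 (ENSMUSG00000029646, chromosome 5, 147300805 to 147307270 on GRCm38, 3 exons) fell in NaJa-D and NaJa-G and was not called in NaJa-F. In NaJa-D at day 1 the CPM of the 3 libraries were 22.9, 24.6 and 20.5 with DMSO and 14.0, 13.2 and 15.9 with encorafenib. At day 5 they were 24.3, 20.7 and 21.5 with DMSO and 12.4, 14.1 and 12.8 with encorafenib. Every encorafenib library of NaJa-D lay below every DMSO library of its day, and the log2 fold change was -0.66 (SE 0.10, limma adjusted p = 3.94e-06) at day 1 and -0.75 (SE 0.10, adjusted p = 5.75e-07) at day 5. The mesothelial markers summed to 1236 to 1514 CPM with DMSO and 2604 to 3520 with encorafenib at day 1. At day 5 these sums were 1225 to 1454 and 2214 to 2859. The epithelial markers summed to 6063 to 6254 CPM with DMSO and 6930 to 9068 with encorafenib at day 1. Their sums at day 5 were 5136 to 5354 and 6228 to 6876. The part of these marker changes in the result was not tested.

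NaJa-G had the lowest Cdx2 with DMSO, at 9.88, 7.86 and 8.30 CPM at day 1 and 8.93 and 8.92 CPM at day 5. With encorafenib it had 3.61, 4.07 and 4.13 CPM at day 1 and 1.28, 1.14 and 1.45 CPM at day 5. The drop on the log2 scale was -1.14 (SE 0.15, limma adjusted p = 5.78e-08) at day 1 and -2.78 (SE 0.21, adjusted p = 2.98e-12) at day 5, which left 0.145 of the DMSO level. No library of the 2 arms overlapped at either day. Stromal markers, of which Col1a1 averaged highest over all groups, went the other way. Their summed CPM was 51.2 to 70.5 with DMSO and 85.1 to 99.7 with encorafenib at day 1. At day 5 it was 13.9 and 16.6 with DMSO and between 105 and 119.5 with encorafenib. The epithelial markers summed to 3321 to 4136 CPM with DMSO and 5063 to 5216 with encorafenib at day 1. Their sum at day 5 was 2598 to 3112 with DMSO and 3104 to 3300 with encorafenib. The mesothelial markers summed to 497 to 565 CPM with DMSO and 1535 to 1744 with encorafenib at day 5, and to 558 to 724 and 1328 to 1523 at day 1. The part of the marker changes in the Cdx2 result was not tested.

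NaJa-F had the highest Cdx2 in both arms. The DMSO libraries had 52.7, 52.6 and 49.7 CPM at day 1 and 56.0, 54.3 and 55.0 CPM at day 5, against 43.9, 45.0 and 41.8 and against 47.7 and 65.3 with encorafenib. The libraries of the arms did not overlap at day 1, where the log2 fold change of -0.25 (95% interval -0.41 to -0.08) missed the threshold (limma adjusted p = 0.0149). It passed with scaling by library size only (-0.27, adjusted p = 0.00579) and with only these groups in the fit (-0.24, adjusted p = 0.00237). At day 5 the 2 encorafenib libraries lay on either side of the DMSO libraries, with a log2 fold change of 0.02 (-0.16 to 0.20).

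The Cdx2 response of NaJa-G differed from that of NaJa-F by -0.90 at day 1 (limma adjusted p = 6.16e-05) and by -2.80 at day 5 (adjusted p = 1.03e-10), and from that of NaJa-D by -2.03 at day 5 (adjusted p = 6.95e-08). At day 1 the difference from NaJa-D was -0.48 (-0.84 to -0.11) and was not called (adjusted p = 0.0272), while edgeR, DESeq2, limma-trend and scaling by library size called it. NaJa-F differed from NaJa-D by 0.77 at day 5 (adjusted p = 0.000158). Within NaJa-G the response differed by -1.64 between day 5 and day 1 (adjusted p = 6.38e-06).

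Hnf4a (ENSMUSG00000017950, chromosome 2, 163506808 to 163572910, 13 exons) was near the detection limit in NaJa-D and fell under encorafenib in NaJa-F and NaJa-G. In NaJa-G at day 1 the libraries had 5.95, 4.22 and 5.07 CPM with DMSO and 2.53, 2.82 and 2.89 CPM with encorafenib. At day 5 they had 3.997 and 3.95 CPM with DMSO and 0.407, 0.453 and 0.407 CPM with encorafenib. The arms did not overlap at either day, and the log2 fold change was -0.88 (SE 0.12, limma adjusted p = 1.92e-07) and then -3.22 (SE 0.22, adjusted p = 2.72e-13), which left 0.108 of the DMSO level. The stromal and mesothelial sums given for NaJa-G beside Cdx2 rose where Hnf4a fell, as did the epithelial sum at day 1, and their part was not tested.

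In NaJa-F the Hnf4a levels at day 1 were 2.42, 2.51 and 2.21 CPM with DMSO and 2.15, 2.09 and 1.74 CPM with encorafenib. The log2 fold change was -0.26 (-0.56 to 0.04) and was not called. On day 5 the DMSO libraries had 2.83, 2.67 and 2.47 CPM and the encorafenib libraries 0.747 and 0.795 CPM. This was a log2 fold change of -1.77 (SE 0.22, limma adjusted p = 3.31e-07), with no overlap. The mesothelial sums there were 660 to 712 CPM with DMSO and 1002 to 1031 with encorafenib. The epithelial sums were 4431 to 4528 CPM with DMSO and 4943 to 5175 with encorafenib. The part of these sums was not tested.

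In NaJa-D only 5 to 21 counts of Hnf4a were seen per library. They gave 0.147, 0.211 and 0.121 CPM with DMSO and 0.211, 0.274 and 0.169 CPM with encorafenib at day 1, and the arms overlapped. On day 5 its DMSO libraries had 0.262, 0.454 and 0.178 CPM and the encorafenib libraries 0.160, 0.105 and 0.149 CPM. The log2 fold change was 0.42 (-0.38 to 1.22) at day 1 and -0.99 (-1.75 to -0.23) at day 5, neither called by limma-voom. edgeR (-1.09, adjusted p = 0.00523) and limma-trend (-0.83, adjusted p = 0.00182) called the day 5 value, and so did limma-voom without DMSO replicate 3 (-1.29, adjusted p = 0.00755).

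The Hnf4a response at day 5 was below that at day 1 in NaJa-F by -1.51 (limma adjusted p = 0.000164) and in NaJa-G by -2.34 (adjusted p = 1.06e-08). At day 5 the response of NaJa-G was below that of NaJa-F by -1.44 (adjusted p = 0.000505) and below that of NaJa-D by -2.23 (adjusted p = 0.000175). At day 1 the difference between NaJa-G and NaJa-F was -0.62 (adjusted p = 0.00843), a call that was lost in 10 of 12 fits without a library and at -0.61 (adjusted p = 0.0120) with the replicate block. It was also lost with edgeR (-0.63, adjusted p = 0.0219), DESeq2 (-0.63, adjusted p = 0.0181), limma-trend (-0.61, adjusted p = 0.0950), RLE scaling (-0.61, adjusted p = 0.0118) and only the groups compared (-0.61, adjusted p = 0.0340). The day 1 difference of NaJa-G from NaJa-D was -1.29 (limma adjusted p = 0.0103) and not called. It was called by edgeR (-1.34, adjusted p = 0.00236), DESeq2 (-1.33, adjusted p = 0.00733) and limma-trend (-1.22, adjusted p = 0.00109), with scaling by library size only (-1.42, adjusted p = 0.00303) and with the replicate block (-1.29, adjusted p = 0.00778), and in 3 of 12 fits without a library. The annotated antisense gene Hnf4aos shares 180 exon bases with Hnf4a, and the use of strand in the counting was not stated, so its reads cannot be told apart there.

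Sox9 (ENSMUSG00000000567, chromosome 11, 112782224 to 112787760) changed little with encorafenib. The NaJa-D libraries had 128, 133 and 126 CPM with DMSO and 94.0, 93.3 and 112 CPM with encorafenib at day 1. The log2 fold change was -0.38 (SE 0.11, limma adjusted p = 0.00436) with no overlap. This call was lost without DMSO replicate 2 (-0.36, adjusted p = 0.0181), encorafenib replicate 1 (-0.34, adjusted p = 0.0244) or encorafenib replicate 2 (-0.33, adjusted p = 0.0257), and with scaling by library size only (-0.30, adjusted p = 0.0128).

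At day 5 in NaJa-D, Sox9 had 157, 119 and 119.9 CPM with DMSO and 109.7, 118 and 103 CPM with encorafenib, and its log2 fold change was -0.25 (-0.47 to -0.02), not called. In NaJa-F the 3 DMSO libraries at day 5 had 68.7, 64.3 and 64.7 CPM and the 2 encorafenib libraries 73.8 and 105 CPM. The log2 fold change of 0.42 (0.17 to 0.67) just missed the threshold (limma adjusted p = 0.0103), and edgeR, DESeq2 and scaling by library size called it at 0.44, 0.45 and 0.42. The other 3 Sox9 values lay between -0.22 and -0.02. Sox9 responses at day 5 differed between NaJa-F and NaJa-D by 0.66 (limma adjusted p = 0.00505) and between NaJa-G and NaJa-F by -0.64 (adjusted p = 0.00501). Both calls were lost in several fits without a library. Without encorafenib replicate 2 of NaJa-F, which left 1 library there, the differences were 0.40 and -0.39. The first was 0.53 (limma adjusted p = 0.0215) without NaJa-D DMSO replicate 1, and the second -0.44 without NaJa-G DMSO replicate 3. With only the groups compared both were lost as well, at 0.69 (adjusted p = 0.0122) and -0.66 (adjusted p = 0.0261).

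Sox17 (ENSMUSG00000025902, chromosome 1, 4490931 to 4497354) was found in NaJa-D, with 62 to 335 counts per library, while the libraries of the other two lines had 0 to 13. In NaJa-D at day 1 it had 1.30, 1.69 and 1.50 CPM with DMSO and 2.03, 1.80 and 2.59 CPM with encorafenib, all 3 above the DMSO libraries. The log2 fold change of 0.50 (0.01 to 0.99) was not called (limma adjusted p = 0.0738). At day 5 the DMSO libraries had 5.48, 3.93 and 2.89 CPM and the encorafenib libraries 2.04, 2.73 and 1.94 CPM, again without overlap but with the arms in the opposite order.

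The day 5 fall of Sox17 was -0.82 (SE 0.18, limma adjusted p = 0.000464). It was -0.56 (adjusted p = 0.0113) without DMSO replicate 1 and missed the threshold with limma-trend (-0.83, adjusted p = 0.0119). The response of NaJa-D at day 5 differed from that at day 1 by -1.32 (adjusted p = 0.00319), a call lost without DMSO day 1 replicate 1 (-1.20, adjusted p = 0.0144), DMSO day 1 replicate 3 (-1.32, adjusted p = 0.0102) or encorafenib day 5 replicate 3 (-1.23, adjusted p = 0.0102). It was also lost with limma-trend (-1.32, adjusted p = 0.0152) and with only the groups compared (-1.30, adjusted p = 0.0456).

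In NaJa-G, Sox17 had 3 to 4 counts per library with DMSO and 4 to 9 with encorafenib at day 1. At day 5 it had 2 and 2 counts with DMSO and 13, 7 and 11 with encorafenib. The day 5 log2 fold change of 2.03 (0.50 to 3.57) was not called by limma-voom (adjusted p = 0.0197), while edgeR gave 2.25 (adjusted p = 0.00191), DESeq2 2.34 (adjusted p = 0.00793) and limma-trend 1.32 (adjusted p = 0.000344). These few counts amount to at most 0.196 CPM. The day 5 response of NaJa-G differed from that of NaJa-D by 2.86 (limma adjusted p = 0.00495), a call lost in 4 of 11 fits without a library. Without NaJa-G DMSO day 5 replicate 3 it was 2.71 (adjusted p = 0.0537), without replicate 1 of that group 2.99 (adjusted p = 0.0266), and without NaJa-G encorafenib day 5 replicate 1 or 3 it was 2.66 (adjusted p = 0.0150) or 2.85 (adjusted p = 0.0101). It was also lost with only the groups compared (2.90, adjusted p = 0.0233). The gene Gm37587 on the opposite strand spans 804 exon bases of Sox17, and reads of the pair cannot be told apart.

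Klf4 (ENSMUSG00000003032, chromosome 4, 55527143 to 55532466) was called in both directions in NaJa-G. At day 1 its CPM were 183, 158 and 150.1 with DMSO and 221, 219.8 and 223 with encorafenib. At day 5 they were 228 and 228 with DMSO and 129.9, 141 and 142 with encorafenib. The arms did not overlap at either day, with a log2 fold change of 0.44 (SE 0.07, limma adjusted p = 1.82e-06) at day 1 and -0.73 (SE 0.08, adjusted p = 2.88e-09) at day 5. The difference between the days was -1.17 (adjusted p = 3.17e-10).

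In NaJa-D, Klf4 had 183, 199.5 and 179 CPM with DMSO and 149.9, 149.7 and 166 CPM with encorafenib at day 1. At day 5 it had 280.0, 249 and 252 CPM with DMSO and 209, 206 and 198 CPM with encorafenib. Both falls were free of overlap, at -0.27 (SE 0.07, limma adjusted p = 0.00127) and -0.35 (SE 0.07, adjusted p = 0.000136). The day 1 call was lost without DMSO replicate 2 (-0.22, adjusted p = 0.0143) and with only these groups in the fit (-0.29, adjusted p = 0.0193). NaJa-F had Klf4 at 115, 115 and 109.5 CPM with DMSO and 112, 104 and 101 CPM with encorafenib at day 1, and at 143, 134 and 128 against 109.7 and 127 CPM at day 5. The arms overlapped at day 1 only, and the log2 fold changes of -0.10 (-0.24 to 0.04) and -0.19 (-0.34 to -0.04) were not called.

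The day 1 response of Klf4 in NaJa-G was above that in NaJa-D by 0.71 (limma adjusted p = 8.00e-07) and above that in NaJa-F by 0.54 (adjusted p = 3.55e-05). At day 5 it was below by -0.38 (adjusted p = 0.00493) and -0.54 (adjusted p = 0.000216). With RLE scaling the first of these was -0.37 (adjusted p = 0.0122) and not called. The day 5 difference from NaJa-D was lost in 7 of 11 fits without a library, at -0.34 to -0.39.

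Klf5 (ENSMUSG00000005148, chromosome 14, 99298691 to 99315036) had the same 2 directions in NaJa-G as Klf4. Its CPM at day 1 were 79.3, 72.2 and 67.4 with DMSO and 109.1, 107 and 99.1 with encorafenib, and at day 5 they were 103 and 118 with DMSO and 78.0, 77.5 and 81.2 with encorafenib. The log2 fold change was 0.53 (SE 0.10, limma adjusted p = 1.83e-05) at day 1 and -0.49 (SE 0.11, adjusted p = 0.000268) at day 5, with no overlap at either. The difference between the days was -1.01 (adjusted p = 1.74e-06). Without DMSO day 5 replicate 3 the day 5 value was -0.39 (adjusted p = 0.0141).

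In NaJa-D and NaJa-F, Klf5 was not called at either day, with log2 fold changes between -0.28 and 0.04 and overlapping libraries in all 4 comparisons. At day 1 the Klf5 response of NaJa-G was above those of NaJa-D (0.49, limma adjusted p = 0.00452) and NaJa-F (0.55, adjusted p = 0.00154). The first of these was lost with scaling by library size only (0.35, adjusted p = 0.0245) and in 4 of 12 fits without a library (0.43 to 0.46). At day 5 the differences were -0.21 (-0.50 to 0.09) and -0.38 (-0.70 to -0.07) and were not called. The day 5 fall of -0.28 in NaJa-D passed without DMSO replicate 3 (-0.37, adjusted p = 0.00495).

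Gata6 (ENSMUSG00000005836, chromosome 18, 11052064 to 11085635) was not called with encorafenib in any line. Over the 34 libraries it ran from 29.9 to 43.0 CPM, and in DMSO at day 1 from 35.1 to 36.5 in NaJa-D, 34.9 to 39.7 in NaJa-F and 32.8 to 38.8 in NaJa-G. The 6 log2 fold changes lay between -0.21 and 0.09, and the widest 95% interval was that of NaJa-F at day 5, -0.41 to -0.01. With limma-voom on all libraries it was called in none of the 27 comparisons of lines, treatments and days. Exceptions were a fall of -0.41 (adjusted p = 0.00946) in NaJa-F at day 5 without encorafenib replicate 2, and a gap of 0.20 (adjusted p = 0.00131) between NaJa-F and NaJa-D in DMSO with scaling by library size only. The SD of its 12 group means of log2 CPM was 0.058, at percentile 0.0425 of all genes, while Cdx2, Hnf4a and Sox17 lay at percentiles 96.2, 97.2 and 99.3. The gene 1010001N08Rik on the opposite strand spans 192 exon bases of Gata6.

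The 3 lines were next set against each other without the drug, each as the average of its DMSO groups at both days. Members were called in 16 of 21 tests (76.2%), and 61.1% of the tests of all genes were called. NaJa-F differed from NaJa-D in 5 of 7 (61.6% of all genes), NaJa-G from NaJa-D in 6 (67.4%) and NaJa-G from NaJa-F in 5 (54.4%). The median absolute log2 difference was 0.84 for the members and 0.32 for all genes.

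Hnf4a and Sox17 marked opposite ends of the 3 lines. Hnf4a rose from NaJa-D to NaJa-F by 3.54 (SE 0.20, limma adjusted p = 4.32e-15) and from NaJa-F to NaJa-G by 0.83 (SE 0.09, adjusted p = 6.14e-09) on the log2 scale. As counts pooled over the DMSO libraries, its ratio was 10.9 (95% interval 8.52 to 14.2) for NaJa-F to NaJa-D and 20.2 (15.9 to 26.2) for NaJa-G to NaJa-D. Sox17 was higher in NaJa-D by a count ratio of 94.6 (53.9 to 184) to NaJa-F, which had 12 counts in 6 libraries, and of 67.8 (40.9 to 122) to NaJa-G, with 15 counts in 5 libraries. These intervals cover counting error only. NaJa-F and NaJa-G did not differ in Sox17 beyond their spread (0.54, -0.61 to 1.69).

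Cdx2 and Sox9 gave other orders. Cdx2 was highest in NaJa-F, then NaJa-D, then NaJa-G, and the gap of -2.60 between NaJa-G and NaJa-F in DMSO (95% interval -2.76 to -2.44, limma adjusted p = 5.67e-22) widened to -4.45 in encorafenib (-4.69 to -4.21, adjusted p = 3.14e-23). Sox9 was highest in NaJa-D, lower in NaJa-F by -0.89 (SE 0.08, adjusted p = 3.31e-11) and lowest in NaJa-G, by a further -0.84 (SE 0.08, adjusted p = 7.26e-10). No library of one line overlapped with another line for either gene in DMSO.

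Differences were smaller for the KLF genes. Klf4 was lower in NaJa-F than in NaJa-D by -0.84 (SE 0.05, limma adjusted p = 3.41e-15) and higher in NaJa-G than in NaJa-F by 0.65 (SE 0.05, adjusted p = 4.97e-12). The gap of -0.19 between NaJa-G and NaJa-D (adjusted p = 0.00149) overlapped in single libraries and was -0.07 (adjusted p = 0.134) with scaling by library size only. It was also lost with only these groups in the fit (-0.18) and at either day alone (-0.19 and -0.19). Klf5 in NaJa-G exceeded that of NaJa-D by 0.39 and that of NaJa-F by 0.56 (adjusted p = 2.34e-05 and 9.34e-08), and at day 1 alone the values were 0.18 and 0.28 and were not called. The Gata6 differences were 0.08, 0.00 and -0.08, with 95% intervals inside -0.21 to 0.21.

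**Figure D3:**
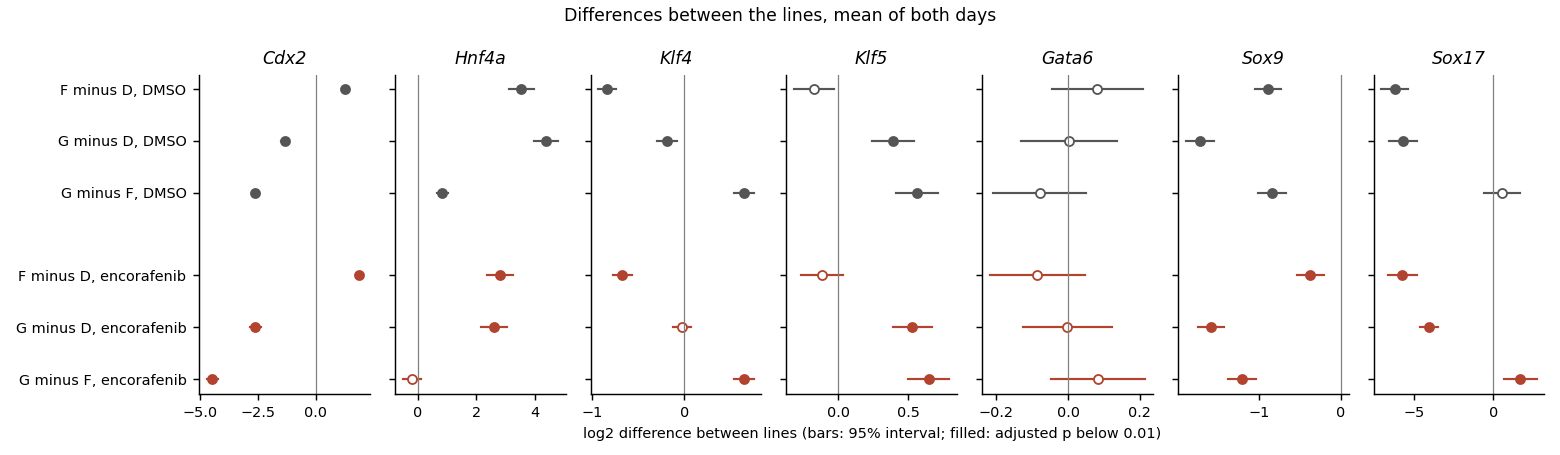
Log2 differences between the lines for each gene, as the mean of both days, in DMSO (grey) and encorafenib (red), with 95% intervals. Filled points passed an adjusted p below 0.01. The scales differ between panels. Cdx2 differed more between NaJa-G and NaJa-F in encorafenib (-4.45) than in DMSO (-2.60). The Hnf4a difference was 0.83 in DMSO and -0.20 in encorafenib, where NaJa-G lay above NaJa-F at day 1 and below it at day 5.

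With encorafenib, again as the mean of both days, members were called in 15 of 21 line comparisons (71.4%, against 69.2% for all genes). NaJa-F differed from NaJa-D in 5 of 7 (67.0% of all genes), NaJa-G from NaJa-D in 5 (74.9%) and NaJa-G from NaJa-F in 5 (65.7%). The averaged Hnf4a gap between NaJa-G and NaJa-F (-0.20, 95% interval -0.52 to 0.12) was not called. Nor was the averaged Klf4 gap between NaJa-G and NaJa-D (-0.03, -0.13 to 0.07). Each gap had opposite signs at the 2 days, without overlap of libraries at either. Mean Hnf4a in NaJa-G and NaJa-F was 2.75 and 2.00 CPM at day 1, and 0.422 and 0.771 at day 5. Mean Klf4 in NaJa-G and NaJa-D was 221 and 155 CPM at day 1, and 138 and 204 at day 5. The days were not tested apart here. Hnf4a exceeded its NaJa-D level in NaJa-F by 2.81 (limma adjusted p = 3.97e-12) and in NaJa-G by 2.61 (adjusted p = 7.95e-12). Klf5 was above NaJa-D in NaJa-G by 0.53 (adjusted p = 5.17e-08) and above NaJa-F by 0.64 (adjusted p = 5.24e-09), while NaJa-F minus NaJa-D was -0.11 and not called. Klf4 was lowest in NaJa-F, where NaJa-F minus NaJa-D was -0.67 (adjusted p = 1.50e-12) and NaJa-G minus NaJa-F was 0.65 (adjusted p = 2.72e-12). No Gata6 difference was called. Cdx2 lay below NaJa-D in NaJa-G by -2.60 (limma adjusted p = 1.07e-17) and above it in NaJa-F by 1.85 (adjusted p = 2.48e-19). Sox9 kept its order, but the gap between NaJa-F and NaJa-D was -0.38 (adjusted p = 0.000164) with overlapping libraries, and -0.24 (adjusted p = 0.0105) without NaJa-F encorafenib day 5 replicate 1. Sox17 was higher in NaJa-G than in NaJa-F by 1.68 (adjusted p = 0.00409) on 4 to 13 against 1 to 3 counts per library, and that call was lost without NaJa-F encorafenib day 5 replicate 1 (1.52, adjusted p = 0.0267) or 2 (1.86, adjusted p = 0.0137) or NaJa-G encorafenib day 1 replicate 1 (1.57, adjusted p = 0.0101).

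Time in culture was examined as day 5 against day 1 within each arm. With DMSO, members were called in 6 of 21 tests (28.6%, against 26.6% for all genes), each of them higher at day 5. The counts were 2 in NaJa-D (29.0% of all genes), 1 in NaJa-F (16.7%) and 3 in NaJa-G (34.1%). Klf4 rose in each line. The rise was 0.48 in NaJa-D (limma adjusted p = 2.77e-06), 0.25 in NaJa-F (adjusted p = 0.00643) and, again, 0.48 for NaJa-G (adjusted p = 9.70e-06). The NaJa-F call was lost in each of the 6 fits without one of its libraries, at 0.18 to 0.27, and with RLE scaling (0.24, adjusted p = 0.0156). With only the groups compared the NaJa-G call was lost (0.50, adjusted p = 0.0101). Sox17 rose in NaJa-D by 1.42 (adjusted p = 8.63e-06), and in NaJa-G Klf5 rose by 0.60 (adjusted p = 4.26e-05) and Sox9 by 0.53 (adjusted p = 0.00119). The Sox9 value was 0.33 without DMSO day 5 replicate 3, which left 1 library there. With only the groups compared its call was lost (0.55, adjusted p = 0.0267). Cdx2 moved by no more than 0.09 in any line with DMSO, and Hnf4a and Gata6 were not called. The Hnf4a values were 0.75 (95% interval -0.04 to 1.53) in NaJa-D, 0.16 in NaJa-F and -0.34 (adjusted p = 0.0228) in NaJa-G. Hnf4a passed in NaJa-D with limma-trend (0.68, adjusted p = 0.00944) and in NaJa-G without DMSO day 1 replicate 2 (-0.48, adjusted p = 0.00145).

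With encorafenib, 8 of 21 tests over time were called (38.1%, against 30.1% for all genes), 3 higher and 5 lower. There was 1 member in NaJa-D (26.7% of all genes), 2 in NaJa-F (22.5%) and 5 in NaJa-G (41.0%). In NaJa-G, Hnf4a fell by -2.68 (limma adjusted p = 3.77e-11), Cdx2 by -1.60 (adjusted p = 6.44e-07), Klf4 by -0.68 (adjusted p = 2.69e-09) and Klf5 by -0.41 (adjusted p = 0.000734), and Sox9 rose by 0.43 (adjusted p = 0.00331). Sox9 lost this call in 3 of the fits without a library, at 0.36 to 0.43. Hnf4a fell in NaJa-F by -1.35 (adjusted p = 4.88e-05) and Klf4 rose in NaJa-D by 0.40 (adjusted p = 3.82e-05). The rise of Cdx2 in NaJa-F by 0.36 (adjusted p = 0.00272) rests on single libraries. Leaving out day 5 replicate 2 gave 0.10, and leaving out day 1 replicate 3 gave 0.33 (adjusted p = 0.0133). This call was also lost with limma-trend (0.36, adjusted p = 0.0161) and with only the groups compared (0.36, adjusted p = 0.0423).

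**Figure D4:**
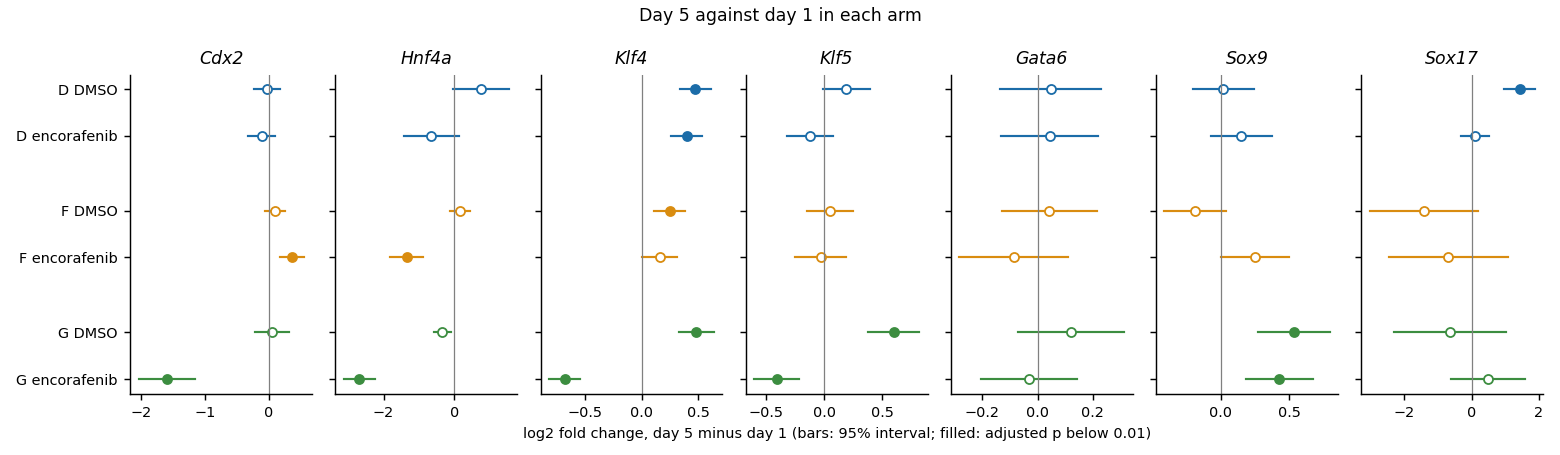
Log2 fold change of each gene from day 1 to day 5 in DMSO and in encorafenib, by line, with 95% intervals. Filled points passed an adjusted p below 0.01. In NaJa-G, Klf4 and Klf5 rose with DMSO (0.48 and 0.60) and fell with encorafenib (-0.68 and -0.41).

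Whether responses differed between lines or days was tested as 9 differences of the encorafenib response. Members were called in 22 of 63 tests (34.9%, against 19.8% for all genes). Comparing lines at day 1, limma called 0 of 7 between NaJa-F and NaJa-D (8.79% of all genes), where 2 had an unadjusted p under 0.05 and edgeR, DESeq2 and limma-trend called 0. It called 2 between NaJa-G and NaJa-D (36.4%) and 4 from NaJa-F to NaJa-G (33.5%). In the same order, day 5 gave 2 (8.85%), 4 (21.9%) and 4 (24.2%). Between the days NaJa-D had 1 (7.29%), NaJa-F 1 (5.88%) and NaJa-G 4 (31.7%). These comparisons share DMSO libraries, so their counts are not independent of each other.

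Across the 12 group means of log2 CPM, Hnf4a and Sox17 ran against each other (Pearson r = -0.86), as did Hnf4a and Sox9 (-0.74). Cdx2 and Klf5 (-0.68) and Klf5 and Sox9 (-0.64) were also opposed. Sox9 with Sox17 (0.65), Klf4 with Klf5 (0.63) and Cdx2 with Sox9 (0.59) went together, while Cdx2 and Hnf4a had r = 0.06 over all groups. The 12 points belong to 3 lines and are not independent, so these values are a description.

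The genes most like a member over the 12 group means were picked from 10255 or 10256 genes averaging at least 2 log2 CPM. They were Pdss2, Mrps5 and Eya2 for Cdx2 (Pearson r = 0.96, 0.95 and 0.94), and Metap2, Sfxn1 and Chtop for Hnf4a (0.96, 0.96 and 0.96). Klf4 was closest to Hif1a, Igbp1 and Dolpp1 (0.95, 0.94 and 0.94) and Klf5 to Fkbp5, Bcl9 and 1700020L24Rik (0.95, 0.93 and 0.93). Sox9 was closest to Lipg, Cmtm6 and Cyp51 (0.99, 0.98 and 0.98), and Sox17 to Zdhhc4, Bsg and Adgre5 (0.98, 0.98 and 0.97). No gene came that close to Gata6, for which Cadps, Garem1 and Ube2d-ps had r = 0.63, 0.57 and 0.54.

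Other transcription factors of the intestinal programme were read from a list of 22, of which 13 were in the table. Cdx1, Hnf4g, Gata5, Foxa3, Nr1i2, Atoh1, Spdef and Ascl2 were among those not analysed. In the 6 encorafenib comparisons 38 of 78 tests were called (48.7%, against 40.5% for all genes), 25 higher and 13 lower, with 8 higher and 1 lower in NaJa-G at day 1, where 64.0% of all genes were called and the list had a median log2 fold change of 0.60 and all genes of 0.04. Among those averaging at least 1 log2 CPM, Ehf (2.14), Prdm1 (1.41) and Elf3 (1.36) changed most there. Ehf and Elf3 are ETS factors of epithelia, and Prdm1 encodes a transcriptional repressor active in the fetal gut. At day 5 in NaJa-G, 4 were higher and 3 lower, with Prdm1 at -2.06 and Ehf at 0.60.

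In NaJa-D, Prdm1 fell at both days (-0.93 and -1.51). In NaJa-F, Gata4 changed by -0.43 and Ehf by 0.42 at day 1, and at day 5 Gata4 changed by -0.66 and Prdm1 by -0.44. Below that minimum level, Prox1 (-1.49) and Foxa2 (-1.21) had larger changes at day 5, and these names were chosen after their values were seen. Gata4, a GATA factor of the upper gut, was higher in NaJa-F and NaJa-G than in NaJa-D with DMSO by 2.88 and 3.16. Elf3 had a difference of -2.45 between NaJa-G and NaJa-D. Of the line comparisons in DMSO, 29 of 39 were called (74.4%, against 61.1% for all genes).

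Genes of absorptive cells and the brush border, which CDX2 and HNF4A are known to bind, moved in both directions. Of the 24 on the list 14 were in the table, without Fabp1, Apoa1, Apoa4, Slc26a3, Car1, Car4, Cdhr5, Myo1a, Alpi and Mep1a. With encorafenib 64 of 84 tests were called (76.2%, against 40.5% for all genes), 38 higher and 26 lower. Aqp8, a water channel of the colon, changed at day 1 and day 5 by -6.05 and -5.92 (NaJa-D), -3.93 and -3.36 (NaJa-F) and -5.43 and -5.74 (NaJa-G), each called. Cdh17, the intestinal cadherin, changed by -3.24 and -4.94, by -1.98 and -2.33 and by -2.86 and -2.84 in the same order. Cdh17 is also 1 of the 7 epithelial markers.

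Among genes that rose, the galectin gene Lgals4 changed by 3.94 in NaJa-D at day 1, the aminopeptidase gene Anpep by 1.44 in NaJa-D at day 5, by 2.60 in NaJa-F at day 1 and by 3.17 in NaJa-G at day 1, and the carbonic anhydrase gene Car2 by 1.87 in NaJa-G at day 5. Krt20, a keratin of surface cells, fell by -1.40 in NaJa-F at day 5. In DMSO, 31 of 42 line tests of this list were called (73.8%, against 61.1% for all genes), 25 of them lower in the line named first, as Gpa33 by -3.83 in NaJa-G against NaJa-D. Against NaJa-D, the median of the list was -0.77 in NaJa-F and -1.31 in NaJa-G. Cdhr2, a protocadherin of the brush border, exceeded its NaJa-D level in NaJa-F by 3.91, and NaJa-G minus NaJa-F was -2.19.

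Foregut markers were few, with 3 of 10 in the table, and Pdx1, Tff1, Tff2, Muc6, Gkn1, Anxa10 and Cldn18 were not analysed. All 18 encorafenib tests of Sox2, Ctse and the mucin gene Muc5ac were called (40.5% of all genes). Muc5ac, which averaged under 1 log2 CPM, fell in each comparison, by between -6.65 and -3.19. Sox2, a factor of the stomach and oesophagus, fell in each line at both days, by between -2.25 and -1.25. Ctse, a protease of the stomach, rose in 5 of the 6 comparisons, by 0.48 to 2.05, and fell by -0.69 in NaJa-F at day 5. With DMSO the difference between NaJa-G and NaJa-D was 2.75 for Sox2 and -5.54 for Ctse.

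Relatives of the members from the KLF, SOX and GATA families (15 of 19 in the table, without Klf12, Klf15, Sox15 and Sox18) were called in 44 of 90 encorafenib tests (48.9%, against 40.5% for all genes), 25 higher and 19 lower. Sox13 changed by -1.53 in NaJa-D at day 5, by -0.78 and -0.70 (NaJa-F) and by -1.94 and -1.55 (NaJa-G), and Sox11 rose in NaJa-D by 0.97 and 1.47. Gata2 fell by -0.95 and -1.82 in NaJa-F and by -1.28 in NaJa-G at day 5, and Gata3 rose by 0.79 in NaJa-F and 1.79 in NaJa-G at day 1. In DMSO, 31 of 45 line tests were called (68.9%, against 61.1% for all genes). Gata2 was higher than in NaJa-D by 3.66 in NaJa-F and 4.98 in NaJa-G, and Sox7 by 1.30 and 2.22, whereas Gata6 did not differ beyond its spread.

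**Figure D5:**
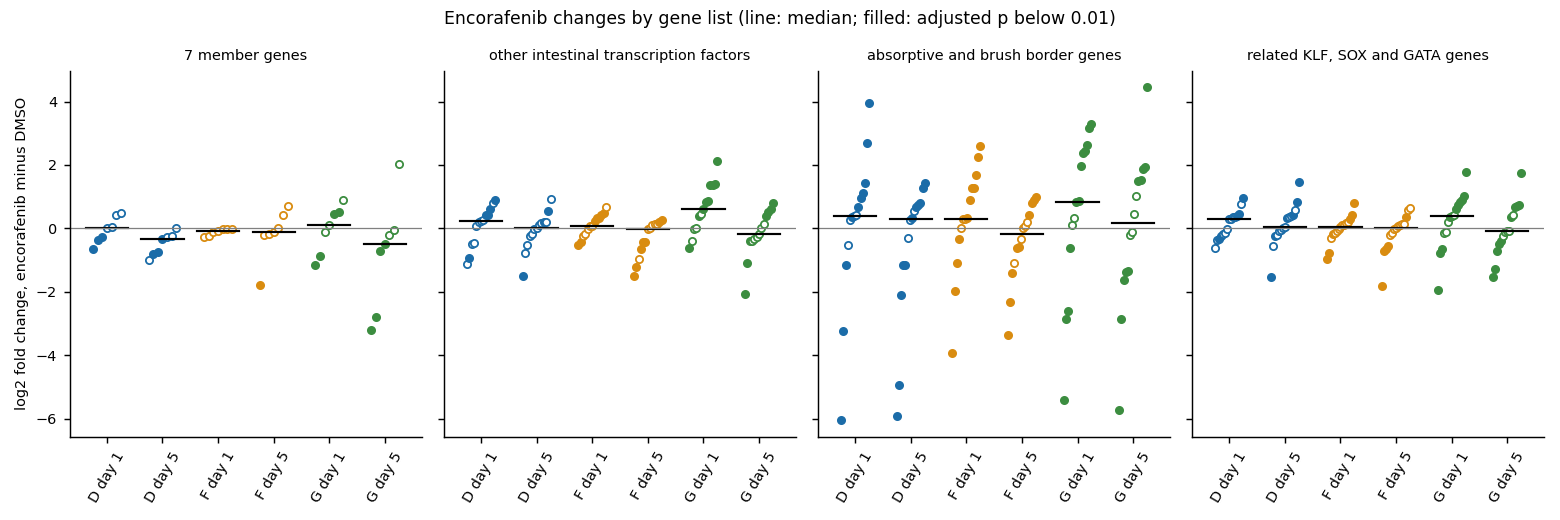
Log2 fold change with encorafenib against DMSO of the 7 genes and of 3 lists, by line (D, F and G) and day, 1 point per gene, with the median as a bar. Filled points passed an adjusted p below 0.01. Points within a comparison are in order of size, and Aqp8 is the lowest point of the absorptive list in all 6 comparisons.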

How the data were processed

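The authors sequenced RNA of 34 libraries and deposited a table of unnormalized read counts for genes of GRCm38. The submitters' processing notes name Trimmomatic 0.39 and STAR 2.5.2b. The counter, annotation release and strand setting were not given in the sources used here. Groups followed the sample titles. The 7 genes and all lists were chosen with earlier results of these data known.

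Counts were fitted in R 4.3.3 with limma 3.58.1 (voom weights) and TMM factors of edgeR 4.0.16, with 1 mean for each of the 12 groups. The study's methods name limma, TMM, a summed count above 2 and an adjusted p below 0.01, and the smallest summed count here was 360. Tests were two-sided, and Benjamini-Hochberg adjustment covered all 14107 genes of a comparison. CPM used TMM factors, and log2 CPM a prior count of 2. Libraries of a group varied 3.32 to 86.6 times as much as counting noise alone would give, so counting intervals are too narrow for replicate spread. Same-numbered libraries did not pair. Symbols came from a table of gene names (14064 of 14107 matched), positions from GENCODE M21 on GRCm38, and promoters from RefSeq on GRCm38.p6 for Cdx2, Hnf4a and Klf4. The fit was tested on simulated data.

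All 7 genes were tested in each comparison. Of each list, at most 3 called genes per comparison with the largest change among those averaging at least 1 log2 CPM are named, besides genes that were not analysed. Exceptions are Muc5ac, Prox1 and Foxa2, which are named although they averaged less. Some genes of the lists are counted but not reported here by name. Results were recomputed with DESeq2 1.42.0, with edgeR's quasi-likelihood test, with limma-trend (prior count 3), with RLE scaling, library size only, filterByExpr, no filter, a replicate block, only the groups compared, either day alone, a looser threshold of 0.05, a minimum log2 change of 1 in either direction, and without each of the libraries. Where this left 1 library in a group, the spread was taken from the other groups and the lone library assumed to vary like them.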

Additional observations from a re-analysis of the deposited data

Results flagged for a closer look

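Responses to encorafenib were compared between lines and between days by testing the difference itself in the limma fit, with a call at an adjusted p below 0.01 over all genes. Of the 63 tests of the 7 genes, 22 were called, and none was weighed for a cause. Groups held 3 libraries at most, so no single library was tested as an outlier.

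At day 1 the Cdx2 response differed by -0.90 between NaJa-G and NaJa-F. At day 5 NaJa-F differed from NaJa-D by 0.77, NaJa-G from NaJa-D by -2.03 and NaJa-G from NaJa-F by -2.80, and within NaJa-G the days differed by -1.64. For Hnf4a the difference was -0.62 between NaJa-G and NaJa-F at day 1. At day 5 NaJa-G differed from NaJa-D by -2.23 and from NaJa-F by -1.44, and between the days it was -1.51 in NaJa-F and -2.34 in NaJa-G.

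Klf4 responses in NaJa-G were above those in NaJa-D and NaJa-F at day 1, by 0.71 and 0.54, and below them at day 5, by -0.38 and -0.54, with -1.17 between the days. Klf5 responses in NaJa-G at day 1 were above those in NaJa-D by 0.49 and in NaJa-F by 0.55, and between the days they differed by -1.01. Sox9 responses at day 5 differed by 0.66 between NaJa-F and NaJa-D and by -0.64 between NaJa-G and NaJa-F. For Sox17 the difference was 2.86 between NaJa-G and NaJa-D at day 5 and -1.32 between the days in NaJa-D. Fits in which some of these calls were lost, among them both Sox9 calls, are given with each gene above.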

How the results depend on the processing

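With a further minimum of 1 on the absolute log2 fold change, the calls of the 7 genes fell from 15 to 4 with encorafenib, from 16 to 8 between lines in DMSO, from 6 to 1 over time in DMSO, from 8 to 3 over time in encorafenib and from 22 to 11 for response differences. The same minimum took the other transcription factors from 38 to 9 with encorafenib and from 29 to 16 between lines, and the KLF, SOX and GATA relatives from 44 to 9 and from 31 to 8. Leaving out 1 library at a time gave 13 to 18, 16 to 17, 5 to 7, 7 to 8 and 19 to 27 calls of the 7 genes in those families, and 13 to 15 between lines in encorafenib. For the lists it gave 36 to 40 and 27 to 30 for other transcription factors, 61 to 64 and 30 to 33 for absorptive genes, 41 to 46 and 29 to 33 for the relatives, and 18 and 8 in each fit for foregut markers.

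Over the other settings, called values of the 7 genes kept their call 743 times and lost it 27 times, none with a change of sign, and without 1 library they kept it 698 times and lost it 62 times. The filterByExpr setting dropped 0 genes, so it and the setting with no filter repeated the main fit. Their 189 values each could not differ from it, and the called ones are among the 743. The Gata6 difference between NaJa-G and NaJa-D in DMSO was -0.034 at day 1 alone. Uncalled values near 0 also turned sign without 1 library, over ranges of -0.047 to 0.067 (Klf5) and -0.092 to 0.076 (Gata6) in NaJa-D at day 1, -0.045 to 0.14 (Gata6) in NaJa-D at day 5, -0.037 to 0.061 (Gata6) between NaJa-G and NaJa-D, -0.053 to 0.022 (Klf5), -0.038 to 0.011 (Sox9) and -0.10 to 0.044 (Sox17) in NaJa-F at day 1, and -0.23 to 0.24 (Cdx2) and -0.33 to 0.092 (Klf5) in NaJa-F at day 5. The cause was not tested. Scaling by library size only moved the median of all genes by up to 0.18, in NaJa-D over time in DMSO.

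Same-numbered libraries did not deviate together, with 3 of 16 correlations above 0.1 (-0.16 to 0.22). A replicate block changed 2 of 189 calls, both Hnf4a responses at day 1, to -1.29 (adjusted p = 0.00778) for NaJa-G against NaJa-D and to -0.61 (adjusted p = 0.0120) against NaJa-F. Low counts limited Sox17 outside NaJa-D and Hnf4a in NaJa-D.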
